A study of Mus musculus with 12 samples.

Results

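In whole back skin exposed to the carcinogen DMBA, 150 transcripts were found at their highest level in mice with an intact T cell compartment. They were chosen among 30678 transcripts that had a mean of at least 0.5 CPM (a transcript's estimated reads divided by the library's total and scaled to the usual counts-per-million unit) over 12 libraries and a value above 0 in every group, out of 85565 listed. For a transcript to be chosen, the lowest of the 3 WT DMBA libraries had to lie above the highest of the other 9, and the WT DMBA mean had to reach at least 2 times the mean of every other group. A further condition, that not all WT libraries lie above all Tcrb-/- libraries, removed 1 transcript. The 150 are 0.489% of the 30678.

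Bulk RNA sequencing was performed on polyA RNA of skin biopsies from 4 groups of FVB mice, with 3 libraries in each. UT WT mice were untreated wild-type FVB mice, and WT DMBA mice were wild-type FVB mice painted with 200 ng DMBA weekly for 6 weeks. Tcrb-/- DMBA mice (TCRbko FVB in the labels) carry a deletion of the T cell receptor β chain gene and received the same DMBA treatment. Tcrb-/- + Treg DMBA mice were Tcrb-/- mice given CD3+CD4+CD25+ cells, purified from the spleen of WT donors, intravenously before DMBA. The mice were age-matched females of 7 weeks or older, and all were on the FVB background. DMBA amounts in the methods are given in another unit than in the deposited description, so the dose is known only as far as that description goes. The 3 WT DMBA libraries carry DMBA in their titles and the entry Naïve in their treatment field, and they were grouped here by title. The transferred cells were selected on CD25 rather than on Foxp3, and the paper reports a check of their purity by Foxp3 and CD25 staining. A figure legend of the paper describes them as CD25hi cells from spleen and lymph nodes. Tcrb-/- recipients still have γδ T cells and B cells.

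As background, DMBA is a polycyclic aromatic hydrocarbon that skin cells convert to a DNA-reactive form, and repeated painting brings inflammation and epithelial thickening. αβ T cells need the T cell receptor β chain, so Tcrb-/- mice lack conventional CD4+ and CD8+ T cells as well as Tregs. Tregs are CD4+ T cells that restrain other immune cells and, in skin, take part in tissue repair. T cells in inflamed skin release cytokines that recruit myeloid cells and change the gene expression of keratinocytes. In bulk skin, fewer cells of a type and less RNA per cell cannot be told apart.

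The files name transcripts of the FVB/NJ strain by identifier, without gene symbols, and no table used here pairs these identifiers with genes. Gene functions, marker genes, the deleted gene and sequences were therefore not analysed here, and the members are described by their length in nucleotides (nt) and their values. Only 2 members are given by identifier. MGP_FVBNJ_T0077611.1 had the widest gap between WT DMBA and all other libraries, and MGP_FVBNJ_T0042427.1 had the highest mean CPM in WT DMBA among the rest.

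Libraries held 17312566 to 31701620 estimated reads. A value of 0 in a library allows a level of up to 0.0946 to 0.173 CPM, taking 3 reads as the limit, and this covers counting error only. No replicate pair was as close as sampling noise alone would leave it (chi-square 21.8 to 107.6 per transcript). The widest differences within a group were those of Tcrb-/- + Treg DMBA replicate 2 from replicate 3, at 107.6, and of Tcrb-/- DMBA replicate 1 from replicates 2 and 3, at 65.9 and 80.8. Whether every library is from a mouse of its own is not given in the sources used here, and the tests therefore rest on library-to-library spread. Among the members, 18 (12%) had whole-number read estimates in all 12 libraries (tolerance 0.01), compared with 5.2% of the 30678. The other 132 had fractional estimates in at least 1 library, as arise when Salmon divides reads between transcripts, and how far this sets their spread was not tested.

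The members were mostly modest in level. The mean CPM in WT DMBA ran from 0.918 to 351 with a median of 4.35, compared with 6.66 over the 30678, and 44 members reached 10 CPM and 5 reached 100 CPM. These 5 made up 38.3% of the members' summed mean CPM in WT DMBA. Members were 415 to 16813 nt long, with a median of 2011.5 nt, against 2301 nt over the 30678. All 150 passed the minimum of 10 reads over the 12 libraries that the tests required.

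Summed over all members, the 3 WT DMBA libraries held 3131, 2566 and 2507 CPM. The UT WT libraries held 515.1, 782.0 and 810.9 CPM and the Tcrb-/- DMBA libraries 748.9, 1049 and 1101 CPM. The Tcrb-/- + Treg DMBA libraries held 397.8, 566.1 and 308.4 CPM. Their median CPM followed the same pattern, at 4.97, 4.16 and 3.87 in WT DMBA, 0.781, 1.20 and 1.23 in UT WT, 1.09, 1.54 and 1.67 in Tcrb-/- DMBA, and 0.695, 1.08 and 0.730 in Tcrb-/- + Treg DMBA. That WT DMBA stands above the rest is what the choice of members fixed. The order of the other 3 groups was not fixed by it, apart from the 1 transcript that the last condition removed, and on the summed CPM the Tcrb-/- + Treg DMBA libraries were at the bottom, with replicate 2 above the lowest UT WT library.

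**Figure D1:**
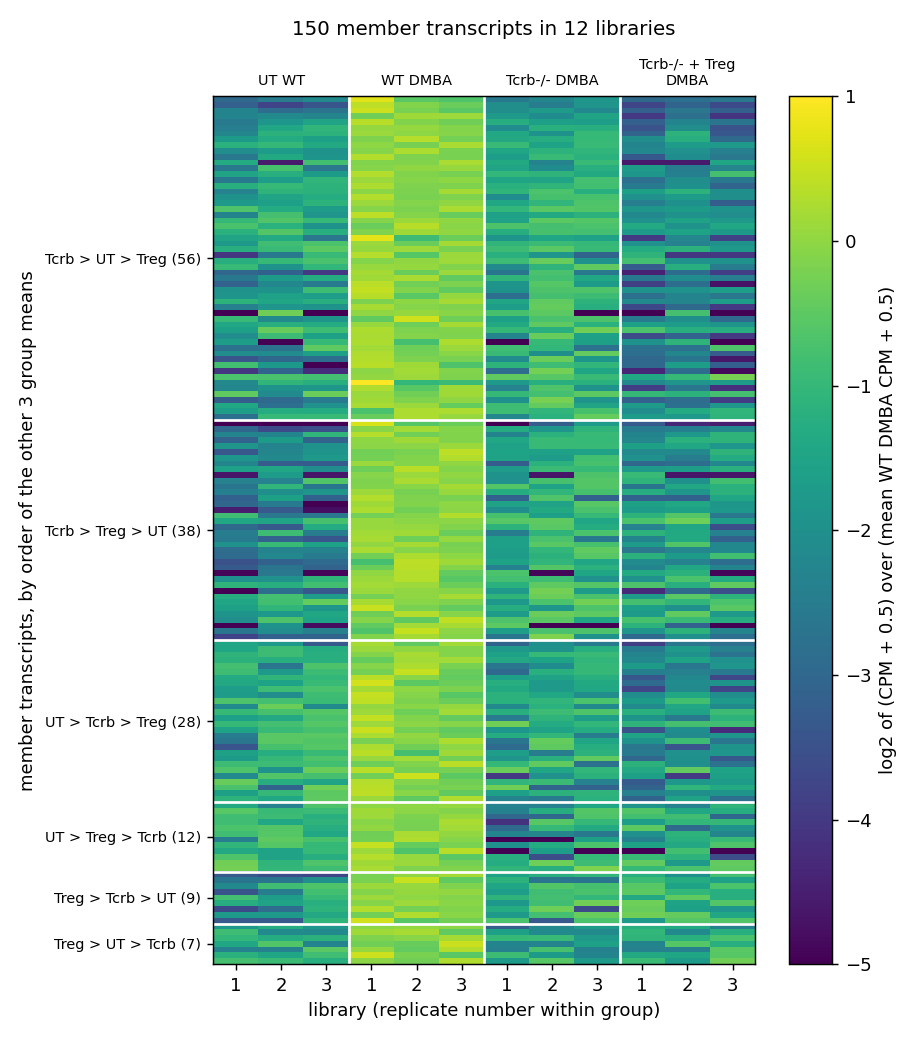
Each row is 1 of the 150 members and each column 1 of the 12 libraries, with colour giving log2 of CPM + 0.5 relative to the WT DMBA mean + 0.5 (yellow higher, dark lower, cut at −5 and 1). Rows are grouped by the order of the other 3 group means. Tcrb-/- DMBA above UT WT above Tcrb-/- + Treg DMBA was the most frequent order with 56 members, and dark cells in single libraries mark estimates at or near 0.

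The WT DMBA libraries agreed within a factor of 2 for most members. The highest WT DMBA library exceeded the lowest by 1.06 to 6.43 times (median 1.53), and by under 2 times in 123 members. Replicate 1 was the highest of the 3 in 75 members, replicate 2 in 42 and replicate 3 in 33. The widest spread was in a member of 3668 nt, which had 3.95, 0.614 and 0.703 CPM in WT DMBA, so that its mean of 1.75 ± 1.90 CPM (SD, n = 3) came mainly from replicate 1. This member's highest value elsewhere was 0.570 CPM, in UT WT replicate 2, close to the lower WT DMBA libraries.

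The gap that defined the members was narrow for many of them. The lowest WT DMBA library exceeded the highest other library by 1.0033 to 3.59 times with a median of 1.30. The gap was at least 2 times in 10 members and at least 1.5 times in 43, and it was under 1.1 times in 27. Over the highest of the other group means, the WT DMBA mean was 2.0003 to 10.2 times higher with a median of 2.45, and it was at least 3 times higher in 34 members, 4 times in 14 and 5 times in 6. The median fold was 3.87 over UT WT, 2.71 over Tcrb-/- DMBA and 5.39 over Tcrb-/- + Treg DMBA. These values chose the members and are given as a description.

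**Figure D2:**
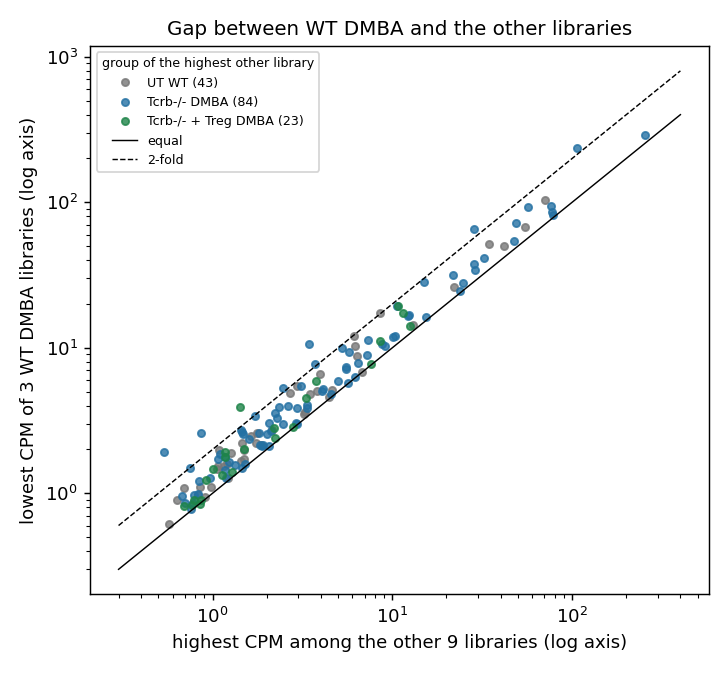
Each point is 1 member, with the highest CPM among the other 9 libraries on the x axis and the lowest CPM of the 3 WT DMBA libraries on the y axis (both log axes), coloured by the group of that highest other library. All 150 points lie above the solid line of equality, as the rule requires, and 10 lie on or above the dashed line at 2-fold. The highest other library was a Tcrb-/- DMBA library for 84 members, a UT WT library for 43 and a Tcrb-/- + Treg DMBA library for 23.

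At the edge of the rule, the members differed little from transcripts left out. The member with the smallest fold, one of 2 members of 2630 nt, had 2.99, 6.43 and 6.36 CPM in WT DMBA and 2.65, 2.29 and 2.95 CPM in Tcrb-/- DMBA, a fold of 2.0003. A transcript of 882 nt was left out at a fold of 1.998, although its WT DMBA libraries (13.2, 11.5 and 9.70 CPM) were well separated from Tcrb-/- DMBA (5.39, 5.24 and 6.60 CPM). The member with the smallest gap, of 636 nt, had 0.850 CPM in its lowest WT DMBA library and 0.847 CPM in its highest other library. A transcript of 4373 nt was left out because 6.76 CPM in its lowest WT DMBA library lay just under 6.77 CPM in Tcrb-/- DMBA replicate 2. The 1 transcript removed by the last condition was 2390 nt long, and it had 43.5 to 83.7 CPM in WT DMBA, 21.2 to 31.97 CPM in UT WT, 17.03 to 19.8 CPM in Tcrb-/- DMBA and 1.38 to 10.02 CPM in Tcrb-/- + Treg DMBA.

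MGP_FVBNJ_T0077611.1, of 1483 nt, was at 0.539 CPM or lower in every library outside WT DMBA. It had 5.83, 2.12 and 1.93 CPM in WT DMBA, from 106, 36.7 and 42.7 estimated reads. In UT WT it had 0, 0.189 and 0.372 CPM, in Tcrb-/- DMBA 0.137, 0.295 and 0.539 CPM, and in Tcrb-/- + Treg DMBA 0, 0.0400 and 0.113 CPM. Its lowest WT DMBA library was thus 3.59 times the highest other library, Tcrb-/- DMBA replicate 3. The WT DMBA mean of 3.29 ± 2.20 CPM (SD, n = 3) compared with 0.323 ± 0.202 CPM in Tcrb-/- DMBA and 0.187 ± 0.186 CPM in UT WT. The 3 Tcrb-/- + Treg DMBA libraries all lay below the 3 Tcrb-/- DMBA libraries, but with at most 12.3 reads in any of the 6 the edgeR difference of −2.61 ± 1.29 (log2, SE) did not pass the test (adjusted p = 0.72).

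MGP_FVBNJ_T0042427.1, of 2613 nt, showed the largest rise of any member over untreated skin. It had 3.27, 3.94 and 2.27 CPM in UT WT and 545, 234 and 274 CPM in WT DMBA, 111 times the UT WT mean. It was also above every UT WT library in both Tcrb-/- groups, with 10.4, 38.2 and 107 CPM in Tcrb-/- DMBA and 35.9, 17.4 and 14.6 CPM in Tcrb-/- + Treg DMBA. Its level in length-scaled units (TPM, which divides reads by transcript length before scaling to the library total) was 202 TPM in WT DMBA, the second highest of the members, and 1.86 TPM in UT WT. The Tcrb-/- DMBA libraries spread over 10-fold, and the 2 Tcrb-/- groups overlapped. The edgeR difference of −1.08 ± 0.663 (log2, SE, adjusted p = 0.722) between Tcrb-/- + Treg DMBA and Tcrb-/- DMBA rested on Tcrb-/- DMBA replicate 3, without which it was 0.009.

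**Figure D3:**
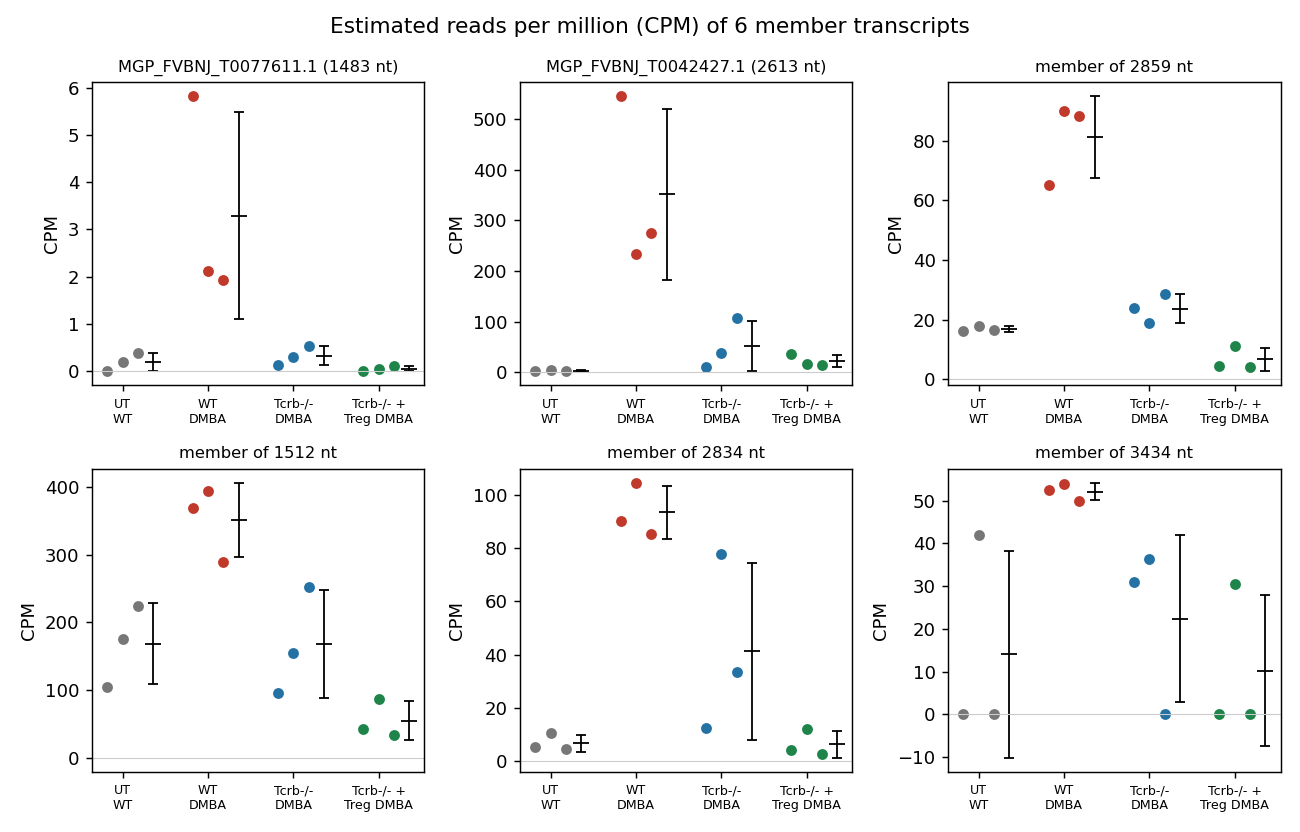
The 6 panels show the CPM of 1 member each, with a point for each of the 3 libraries of a group in the order of replicates 1 to 3 and, beside them, the group mean with its SD (n = 3). The 2 named members are at the upper left, and the other panels show members of 2859, 1512, 2834 and 3434 nt. In every panel the WT DMBA points are above all others, while the member of 3434 nt is at 0 in 5 of the other 9 libraries and at 30.6 to 42.0 CPM in the other 4.

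Other members with wide gaps were found at various levels. A member of 998 nt, second by its gap (3.09 times), had 18.2, 12.5 and 10.6 CPM in WT DMBA, 1.107, 0.536 and 0.863 CPM in UT WT, 3.001, 2.12 and 3.42 CPM in Tcrb-/- DMBA, and 0.561, 1.20 and 0.634 CPM in Tcrb-/- + Treg DMBA. Every Tcrb-/- DMBA library of this member lay above every UT WT and every Tcrb-/- + Treg DMBA library. The member of 1950 nt came next by its gap (2.97 times). It had 6.05, 3.37 and 2.58 CPM in WT DMBA and 0.591, 0.867 and 0.477 CPM in Tcrb-/- DMBA, and was at 0 in 2 of the 3 Tcrb-/- + Treg DMBA libraries, with 0.226 CPM in replicate 2. Its identifier follows directly on that of MGP_FVBNJ_T0077611.1, and both have estimates that are not whole numbers, so the 2 may not be independent measurements.

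The next by its gap (2.74 times), a member of 4360 nt, had the closest WT DMBA libraries of these, at 3.99, 4.23 and 3.90 CPM. Outside WT DMBA it was lowest in Tcrb-/- DMBA, with 0, 0.506 and 0.861 CPM, against 1.43, 1.30 and 0.389 CPM in Tcrb-/- + Treg DMBA, which overlapped. A member of 1460 nt was the one with the widest gap (2.15 times) among the 18 with whole-number estimates. It had 100, 115 and 117 reads in WT DMBA, 6, 0 and 1 reads in UT WT, 45, 25 and 56 reads in Tcrb-/- DMBA, and 14, 17 and 18 reads in Tcrb-/- + Treg DMBA. The 4 groups of this member did not overlap, and the order ran from WT DMBA over Tcrb-/- DMBA and Tcrb-/- + Treg DMBA down to UT WT.

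By TPM, the scale on which transcripts of different length can be compared, the highest member was 1512 nt long, with a mean of 361 TPM in WT DMBA, 181 TPM in UT WT, 165 TPM in Tcrb-/- DMBA and 53.5 TPM in Tcrb-/- + Treg DMBA. In CPM it had 369, 394 and 289 in WT DMBA, 105, 176 and 225 in UT WT, 95.3, 155 and 253 in Tcrb-/- DMBA and 42.9, 87.5 and 34.2 in Tcrb-/- + Treg DMBA. Its UT WT and Tcrb-/- DMBA libraries overlapped throughout, whereas all Tcrb-/- + Treg DMBA libraries lay below them. A member of 755 nt was by TPM the most abundant of the whole-number members, with 54.8, 37.8 and 48.7 CPM in WT DMBA, 7.79, 5.02 and 3.996 CPM in UT WT, 15.2, 28.5 and 7.51 CPM in Tcrb-/- DMBA and 9.15, 18.2 and 4.93 CPM in Tcrb-/- + Treg DMBA. Its 2 Tcrb-/- groups overlapped.

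When the rule's own contrasts were fitted across all 54539 transcripts with edgeR, few members passed the thresholds of an adjusted p under 0.01 and a change of more than 2-fold. Against UT WT, 8 members were called higher in WT DMBA (0.161% of all transcripts tested were), and the smallest adjusted p was 0.0027. Against Tcrb-/- + Treg DMBA, 9 members were called (0.348% of all), with a smallest adjusted p of 0.00246. Against Tcrb-/- DMBA, 0 were called (0.00367% of all), 48 had an unadjusted p under 0.05 (3.01% of all) and the smallest adjusted p was 0.308. DESeq2, the tool of the study, called 44, 59 and 9 members in these contrasts (1.55%, 2.59% and 0.288% of all). At an adjusted p under 0.05 without a fold minimum, edgeR called 22 against UT WT (0.695% of all) and 38 against Tcrb-/- + Treg DMBA (1.67% of all). At the first thresholds, 136 members were called in none of the 3, 11 in 1 and 3 in 2. Since the members were chosen on these contrasts, the counts are a description. They also changed with the libraries used. Against UT WT, 0 to 2 members were called when any 1 of the 6 libraries compared was left out. The share of all transcripts called in either direction fell too, from 0.231% to between 0.0225% and 0.115%. Against Tcrb-/- + Treg DMBA, the count was 0 to 4 without any 1 of 5 libraries. The share of all was then 0.0149% to 0.223% in either direction, compared with 0.396% with all libraries. Without Tcrb-/- + Treg DMBA replicate 2 the count was 17 (0.746% of all in either direction).

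The working name of the set, transcripts raised by DMBA only with full T cells, goes further than these groups can show, and in some members Tcrb-/- DMBA was itself above UT WT. In 24 members (16%) every Tcrb-/- DMBA library was above every UT WT library with a mean at least 2 times higher, compared with 5.81% of the 30678. In 29 members the 2 groups did not overlap in this direction at any fold (12.7% of the 30678), and in 2 they did not overlap in the other (19.2%). The Tcrb-/- DMBA mean was above the UT WT mean in 103 members and at least 2 times above it in 44. For the Tcrb-/- + Treg DMBA mean these counts were 54 and 21. Shares of the 30678 were not counted for these means, so whether the counts are particular to the members was not tested. In 11 members all Tcrb-/- + Treg DMBA libraries were above all UT WT libraries (12.3% of the 30678). Both comparisons share the UT WT libraries. There was no untreated Tcrb-/- group among the samples, so genotype and DMBA treatment cannot be told apart in them, and that WT DMBA was higher still is fixed by the rule.

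Among the 24, the WT DMBA mean was 4.33 to 111 times the UT WT mean (median 14.4), and the Tcrb-/- DMBA mean 2.14 to 18.9 times (median 5.51). The Tcrb-/- DMBA mean of the 24 was 0.998 to 8.58 times that of Tcrb-/- + Treg DMBA (median 2.79), and the members of 998 and 1460 nt above are examples in which Tcrb-/- + Treg DMBA lay lower without overlap. In others the Tcrb-/- groups overlapped. A member of 2043 nt had 0.237, 0.127 and 0.0456 CPM in UT WT, 5.89, 6.83 and 7.88 CPM in WT DMBA, 2.05, 2.66 and 3.03 CPM in Tcrb-/- DMBA and 2.63, 1.36 and 3.76 CPM in Tcrb-/- + Treg DMBA. Its 2 Tcrb-/- groups overlapped fully, and both lay between UT WT and WT DMBA. A member of 748 nt showed the same order, with 0.432, 1.64 and 0.276 CPM in UT WT, 25.1, 16.9 and 20.3 CPM in WT DMBA, 4.58, 7.83 and 12.4 CPM in Tcrb-/- DMBA and 6.03, 6.60 and 5.61 CPM in Tcrb-/- + Treg DMBA. A member of 2793 nt had 6.55, 8.67 and 9.72 CPM in UT WT, 39.9, 31.4 and 39.0 CPM in WT DMBA, 14.9, 17.4 and 21.7 CPM in Tcrb-/- DMBA and 14.9, 9.64 and 16.5 CPM in Tcrb-/- + Treg DMBA. In that member both Tcrb-/- groups again overlapped, with replicate 2 of Tcrb-/- + Treg DMBA within the range of UT WT.

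The Tcrb-/- mice with and without transferred Tregs were next compared, 2 groups that no condition of the rule set against each other. The comparison is between mice given the cells and mice not given them, in the absence of other αβ T cells. No group with a control transfer was among the samples. With transferred Tregs most members had a lower level. The rule places WT DMBA above both groups, so a lower level is also further from WT DMBA by construction. In 45 members (30%) every Tcrb-/- DMBA library lay above every Tcrb-/- + Treg DMBA library, compared with 10.1% of the 30678, and in 43 of these the means differed by at least 2 times (28.7%, compared with 5.78%). In the opposite direction 0 members had separate groups, compared with 4.22% of the 30678. The 43 had Tcrb-/- DMBA means 2.08 to 16.5 times those of Tcrb-/- + Treg DMBA (median 3.42).

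In the edgeR fit, the log2 difference of Tcrb-/- + Treg DMBA from Tcrb-/- DMBA had a median of −0.74 over the 150 members, from −3.76 to 2.44, and a median of 0.0 over all 54539 transcripts tested. It was below 0 in 119 members (79.3%, compared with 46.7% of all). At the adjusted thresholds 0 members were called by edgeR (0.0147% of all in either direction). At an unadjusted p under 0.05, 37 members were lower (24.7%, compared with 4.09% of all) and 1 was higher (0.667%, compared with 2.88%). DESeq2 called 15 members lower (10%, compared with 1.15% of all) and 0 higher (0.227% of all), and all 15 were among the 43 whose groups were separate by at least 2 times. Without Tcrb-/- + Treg DMBA replicate 2, which was the highest of its group in 75 members, edgeR called 3 members lower (0.123% of all in either direction) and the median was −1.04. At an adjusted p under 0.05 and with all libraries, 1 member was lower (0.147% of all). These shares count transcripts, and how many genes they stand for was not analysed here.

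**Figure D4:**
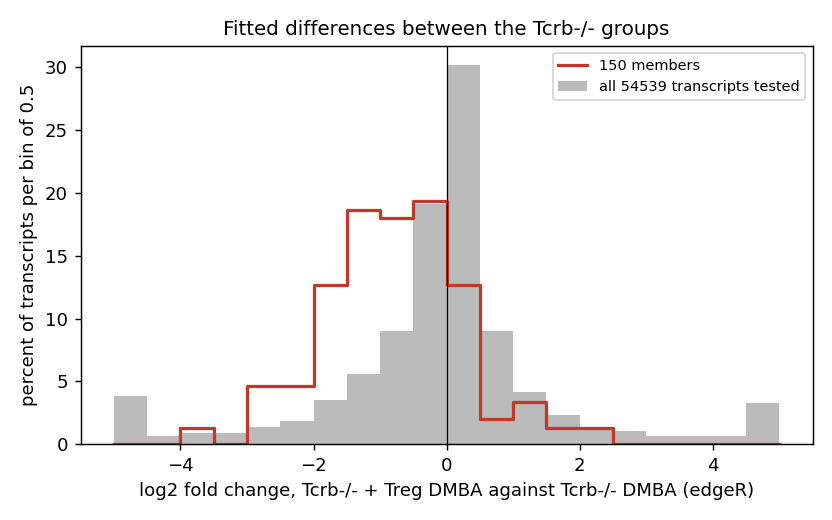
Grey bars give the percent of all 54539 transcripts tested, and the red line the percent of the 150 members, in each bin of 0.5 of the edgeR log2 fold change of Tcrb-/- + Treg DMBA against Tcrb-/- DMBA (x axis, values beyond ±5 in the end bins). The members' line lies to the left of 0, with 119 of 150 members below 0 and a median of −0.74, whereas the bars are centred on 0.

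The smallest adjusted p of a member in this comparison was 0.0317 by edgeR, in one of 2 members of 1690 nt. It had 11.9, 28.7 and 16.2 CPM in Tcrb-/- DMBA and 2.504, 4.64 and 1.90 CPM in Tcrb-/- + Treg DMBA, against 44.6, 35.9 and 34.4 CPM in WT DMBA and 6.87, 10.1 and 9.56 CPM in UT WT. The groups of this member did not overlap, and its level after Treg transfer lay under that of untreated skin. The log2 difference was −2.55 ± 0.376 (SE), and over the edgeR settings run the adjusted p ranged from 0.0104 to 0.409. DESeq2 gave an adjusted p of 6.31e-09.

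Of the 3 members called without Tcrb-/- + Treg DMBA replicate 2, the member of 2859 nt was the clearest. It had 23.9, 18.8 and 28.6 CPM in Tcrb-/- DMBA and 4.58, 11.3 and 4.29 CPM in Tcrb-/- + Treg DMBA, against 16.1, 17.9 and 16.5 CPM in UT WT and 65.3, 89.9 and 88.4 CPM in WT DMBA. All 4 groups were separate. Its log2 difference was −1.74 ± 0.340 (SE, edgeR adjusted p = 0.0887), with an adjusted p of 0.00447 without that library and up to 0.522 in the other settings. The other two, of 1066 and 990 nt, have identifiers 3 numbers apart. They had 22.8, 24.1 and 29.8 CPM and 46.1, 33.9 and 43.6 CPM in Tcrb-/- DMBA. In Tcrb-/- + Treg DMBA they had 6.43, 15.0 and 4.93 CPM and 8.33, 26.7 and 8.34 CPM, so replicate 2 was the highest in both. Their adjusted p by edgeR was 0.192 and 0.318 with all libraries and 0.00927 and 0.00997 without replicate 2, and it reached 0.635 and 0.794 in other settings.

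Members of high level were often among the lower ones. Of the 20 members with the highest mean TPM in WT DMBA, 14 had separate groups with a mean at least 2 times lower after Treg transfer, compared with 29 of the other 130, and 9 of the 20 were called by DESeq2. How often other transcripts of like level were separate or called was not counted, so whether this is particular to the members was not tested. The member of 1512 nt described above was 1.52 lower on the log2 scale (SE 0.412, edgeR adjusted p = 0.269, DESeq2 adjusted p = 0.00515). The largest difference was that of a whole-number member of 4065 nt, which had 10, 17 and 17 reads in Tcrb-/- DMBA and 1, 2 and 0 reads in Tcrb-/- + Treg DMBA (log2 difference −3.76 ± 1.07, SE, edgeR adjusted p = 0.312).

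Compared with UT WT, Tcrb-/- + Treg DMBA was lower without overlap in 29 members (19.3%), a smaller share than the 23.2% of the 30678. With a mean at least 2 times lower as well, the count was 25 (16.7%, compared with 11.6% of the 30678). It was 41 without UT WT replicate 1 (15.2% of the 30678) and also without Tcrb-/- + Treg DMBA replicate 2 (14.1% of the 30678). In the 25, the WT DMBA mean was 2.04 to 4.81 times the UT WT mean (median 2.62). Of the 3 groups other than WT DMBA, Tcrb-/- + Treg DMBA had the lowest mean in 84 members (56%, compared with 39.7% of the 30678). UT WT had it in 47 (31.3%, compared with 32%) and Tcrb-/- DMBA in 19 (12.7%, compared with 28.3%). The member of 11629 nt had 22.8, 25.2 and 35.6 CPM in UT WT, 83.5, 72.1 and 77.4 CPM in WT DMBA, 28.9, 37.2 and 48.9 CPM in Tcrb-/- DMBA and 13.9, 19.1 and 7.84 CPM in Tcrb-/- + Treg DMBA. Its UT WT and Tcrb-/- DMBA libraries overlapped, and the Tcrb-/- + Treg DMBA libraries lay under both.

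The 1 member higher with Tregs at an unadjusted p under 0.05 was 1933 nt long. It had 0.182, 0.197 and 0.0549 CPM in Tcrb-/- DMBA and 0.345, 1.04 and 0.195 CPM in Tcrb-/- + Treg DMBA, against 1.38, 1.73 and 0.778 CPM in UT WT and 2.20, 3.47 and 2.89 CPM in WT DMBA. The 2 Tcrb-/- groups overlapped by a small margin, and at 1.25 to 4 reads per Tcrb-/- DMBA library the difference of 1.94 ± 0.808 (log2, SE) did not pass the adjusted test (edgeR adjusted p = 0.673, DESeq2 adjusted p = 0.247). It is also among the members in which Tcrb-/- DMBA lay below UT WT without overlap.

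The library nearest to WT DMBA was most often one of Tcrb-/- DMBA. Tcrb-/- DMBA replicate 2 was the highest of the other 9 libraries in 40 members and replicate 3 in 36, whereas replicate 1 was in 8. Replicate 1 was the lowest of its group in 90 members. In 17 members (11.3%, compared with 5.4% of the 30678) replicate 2 was more than 2 times above both other Tcrb-/- DMBA libraries. A member of 2834 nt had 12.5, 77.6 and 33.4 CPM in Tcrb-/- DMBA, against 90.3, 104 and 85.3 CPM in WT DMBA, 5.17, 10.5 and 4.45 CPM in UT WT and 4.12, 12.2 and 2.68 CPM in Tcrb-/- + Treg DMBA. Its replicate 2 reached nearly the lowest WT DMBA library, while replicate 1 was near UT WT. A member of 2938 nt had 30.2, 76.0 and 34.2 CPM in Tcrb-/- DMBA, 148, 94.0 and 99.6 CPM in WT DMBA, 12.6, 24.3 and 19.3 CPM in UT WT and 7.38, 15.5 and 3.85 CPM in Tcrb-/- + Treg DMBA. Of the 17, none had whole-number estimates in all libraries.

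That no WT DMBA library of a member was at 0 is fixed by the rule. In each of the other 9 libraries 8 to 21.3% of the members were at 0, compared with 3.5 to 8.6% of the 30678. The rule also favours low values in these 9 libraries, so a larger share at 0 there follows in part from the choice of members. In 73 members at least 1 of the other 9 libraries was at 0, in 32 at least 3 were, and in no member more than 6. In 51 members (34%) a group held a library at 0 beside a library of at least 50% of the lowest WT DMBA value, and only 1 of these 51 had whole-number estimates. The shares of the 30678 were not counted for the 73, the 32 and the 51. The member of 3434 nt had 0, 42.0 and 0 CPM in UT WT, 30.9, 36.2 and 0 CPM in Tcrb-/- DMBA and 0, 30.6 and 0 CPM in Tcrb-/- + Treg DMBA, but 52.5, 54.0 and 49.9 CPM in WT DMBA. A member of 2048 nt had 0, 29.1 and 3.54 CPM in UT WT, 78.4, 0 and 0 CPM in Tcrb-/- DMBA and 51.2, 12.5 and 0 CPM in Tcrb-/- + Treg DMBA, and 81.7, 126 and 129 CPM in WT DMBA. In both members all values of 0 stand beside at least 737 reads in another library of the same group, so group means say little for them. Whether the reads at a 0 went to another transcript was not tested.

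The 18 whole-number members showed no fractional estimates, which does not by itself exclude shared reads. Of the 18, 13 had no value of 0, 7 were among the 43 lower with Tregs and 4 among the 24 higher in Tcrb-/- DMBA than in UT WT. Such counts were not made for whole-number transcripts outside the members. Whether the counts among the 18 are particular to the members was therefore not tested. A member of 4453 nt had 11.7, 10.7 and 10.04 CPM in WT DMBA, 1.89, 4.61 and 4.72 CPM in UT WT, 3.77, 2.51 and 5.22 CPM in Tcrb-/- DMBA and 0.820, 4.68 and 0.585 CPM in Tcrb-/- + Treg DMBA. Its replicate 2 of Tcrb-/- + Treg DMBA was as high as UT WT replicates 2 and 3, while replicates 1 and 3 lay below all other libraries.

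The members were set among transcripts that responded to DMBA in WT skin. Of the 30678, 1806 had all WT DMBA libraries above all UT WT libraries and a mean at least 2 times higher, and the 150 members were 8.31% of these. In 921 of the 1806 both Tcrb-/- groups also had means at least 2 times above UT WT. Members lay close to each other in the numbering of the files in some cases, with 20 members within 5 numbers of another member. Of 325 other transcripts within 3 numbers of a member, 29 had every WT DMBA library above every other (8.92%, compared with 2.21% of the 30678 that were no members). What order the numbers follow is not given in the sources used here, and whether close numbers share reads was not tested.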

How the data were processed

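Skin RNA of 12 libraries, 3 per group, was sequenced on an Illumina platform from a library kit that does not mark strand. The authors quantified reads with Salmon 1.5.2 on the FVB/NJ transcriptome and checked them with FastQC 0.12.1 and MultiQC 1.11. The deposited values are expected counts (estimated reads) per transcript before any normalization, with TPM beside them. The authors scaled the deposited TPM for transcript length and library total. The study went on to sum transcripts to genes and to test genes with DESeq2. The tests here were planned for transcripts where no table pairs them with genes, and gene and marker lists could not be used.

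CPM was computed from library totals of 17312566 to 31701620 estimated reads. Estimated counts were rounded, and the 54539 transcripts with 10 or more reads in all 12 libraries together entered 1 edgeR fit of the 4 groups (version 4.0.16 under R 4.3.3, TMM factors, quasi-likelihood F test, Benjamini-Hochberg adjustment). DESeq2 1.42.0 served as the alternative. The dispersion common to all transcripts was 0.818. A standard error was obtained as the fitted log2 difference over the root of its F value. On simulated counts for Tcrb-/- + Treg DMBA against Tcrb-/- DMBA, edgeR found 22 of 100 true 4-fold changes and 44 of 100 true 16-fold changes, and made 0 calls in 51342 transcripts simulated without change. The members and lists were chosen with earlier results of these data known. By the rule used, 2 members are named by identifier, that with the widest gap and, of the rest, that with the highest mean CPM in WT DMBA. Members described by length were picked after their values were seen. Plots were made in Python 3.11.15 (matplotlib 3.10.9).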

Additional observations from a re-analysis of the deposited data

How the results depend on the processing

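The number of members was 150. It was 400 with a 1.5-fold and 34 with a 3-fold threshold, 18 on whole-number transcripts alone (chosen after seeing the data), and 125 to 309 when 1 library was left out, with 309 and 284 without WT DMBA replicates 2 and 3. It stayed within 1.5 times of 150 with TMM library sizes (113, of which 111 were shared) and with TPM (165, of which 139 were shared). For Tcrb-/- + Treg DMBA against Tcrb-/- DMBA, edgeR called 0 members, 1 at an adjusted p under 0.05 without a fold minimum, and 0 to 3 with 1 library left out, and DESeq2 called 15. The shares of all transcripts called in either direction were 0.0147%, 0.16%, 0% to 0.123%, and 1.38%, in the same order. The median log2 difference of −0.74 was −0.867 with the replicate number as a block, −1.122 on whole-number transcripts and −1.042 to −0.667 with 1 library left out. That of MGP_FVBNJ_T0042427.1 was −1.076, and ran from −1.651 to 0.009 with 1 library left out, the latter without Tcrb-/- DMBA replicate 3.

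In the contrasts the rule used, with edgeR counts of 8 members against UT WT and 9 against Tcrb-/- + Treg DMBA, the replicate block gave 0 and 1, fits of only the groups compared 4 and 0, whole-number transcripts 4 and 5, DESeq2 44 and 59, an adjusted p under 0.05 gave 22 and 38, and leaving out 1 library gave 0 to 2 and 0 to 17. The shares of the transcripts tested that were called in either direction moved too, from 0.231% and 0.396%. The replicate block gave 0.033% and 0.0532%, fits of only the groups compared 0.134% and 0%, and whole-number transcripts 1.29% and 4.34%. DESeq2 gave 2.25% and 3.67%, and an adjusted p under 0.05 gave 1.14% and 2.84%. Leaving out 1 library gave 0.0225% to 0.115% and 0.0149% to 0.746%. Against Tcrb-/- + Treg DMBA, DESeq2 size factors gave 14 (0.501% of those tested, either direction), library totals alone 15 (0.688%), no filter 14 (0.388%) and filterByExpr 17 (1.05%). Against Tcrb-/- DMBA edgeR called 0, also with any 1 library left out (0 to 0), and DESeq2 called 9. The shares of those tested, in either direction, were 0.00367%, 0.00185% to 0.00931%, and 0.759%, in the same order. The counts of members separate between the other groups, with 1 library left out in turn (chosen after seeing the data), were 43 to 60 for Tcrb-/- DMBA over Tcrb-/- + Treg DMBA (43 with all), 26 to 36 for Tcrb-/- DMBA over UT WT (24) and 26 to 41 for UT WT over Tcrb-/- + Treg DMBA (25), with 41 both without UT WT replicate 1 and without Tcrb-/- + Treg DMBA replicate 2. The cause of these changes was not tested, except that leaving out a library makes separation easier by construction. Deviations of replicates with the same number had correlations of −0.061 to 0.128, compared with −0.125 to 0.13 for different numbers. The numbers were therefore not taken as pairs. In the simulation edgeR missed most 4-fold changes, so members that were not called may still differ.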
